A study of Mus musculus with 18 samples.

Results

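The genes described here are 6 serpins, Serpina3f, Serpina3g, Serpinb9, Serpinb6a, Serpinb6b and Serpinb1a, out of the 33006 genes in the deposited count matrix. Of those 33006 genes 17739 had at least 1 UMI (unique molecular identifier, the tag by which each captured mRNA molecule is counted once). Serpins were named by their symbols, and the choice was made with earlier results of these data in view, in which Serpina3f stood among the largest rises of ∆Foxp3 mice aged 3 weeks over WT mice aged 9 weeks. That comparison, and its difference from the chimera comparison, are therefore given as description without a p-value. The matrix held 61 genes with a Serpin symbol, 21 of them with a UMI, and 15 of these lie outside the 6 genes.

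The study profiled splenic CD4 T cells of mice that lack a functional Foxp3, the transcription factor of regulatory T (Treg) cells, by 10x Genomics 3′ single-cell RNA sequencing, in 18 samples of 8 groups. All cells were sorted as live TCRβ+ CD4+ cells. With the V2 kit, ∆Foxp3 mice (Foxp3DeltaEGFPiCre x ROSA-YFP on B6, male, 3 weeks, 2 samples) were set against WT mice (B6 Foxp3-IRES-GFP, 3 weeks, 2 samples). With the V3 kit, ∆Foxp3 mice of the same line and age (2 samples) were set against WT mice (Foxp3-IRES-GFP x CD45.1, 9 weeks, 2 samples), so genotype and age differ together there. Also with the V3 kit, mixed chimeras gave ∆Foxp3 cells (CD45.1+ CD45.2+, 3 samples) and WT cells (CD45.1+ CD45.2-, 3 samples) from the same 3 recipients. The CD45.2 recipients were 7 weeks old, received 1000 rad and CD3-depleted marrow, with the 2 donors, both 21 days old, giving 50% each, and the cells were taken 10 weeks after transplant; the labels give an age of 16 weeks for these samples, which does not equal the sum of 7 and 10 weeks. Sorted GFP+ Treg cells (2 samples) were set against sorted GFP- conventional (Tconv) cells (2 samples) of the WT line at 9 weeks. In the ∆Foxp3 line the Foxp3 locus drives GFP and Cre in place of Foxp3, so GFP marks cells that use the locus, not functional Treg cells. In the chimeras WT Treg cells are present beside the ∆Foxp3 cells. The 2 samples of each V3 group outside the chimeras carry 1 hashtag in 2 channels and may come from 1 mouse, so the spread between them may be technical. In V3 fits all groups, chimeras included, share 1 estimate of spread. A V3 p-value therefore does not measure the spread between mice of the groups compared.

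Serpins are protease inhibitors that offer an exposed loop as bait: the protease cuts the loop, is swung across the inhibitor and stays trapped in a dead complex. Clade A serpins are mostly secreted, although mouse Serpina3g acts inside lymphocytes, where it is known as an inhibitor of cathepsins and as a gene induced by interferon-gamma. Clade B serpins lack a classical signal peptide and protect cells from their own proteases. In cytotoxic and activated lymphocytes these proteases include the granzymes held in secretory granules and the cathepsins of lysosomes.

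Serpina3f lies on chromosome 12 at 104214544-104221129 and Serpina3g on the same strand at 104236245-104241939 (GRCm38, GENCODE M21), with 15116 bases between the genes. Both belong to the expanded Serpina3 cluster of the mouse, so reads of one could be assigned to the other: of 470 windows of 31 bases in the last 500 bases of each longest transcript, 43 (9.15%) also occurred in the other gene's transcript. The pair was therefore also read as a sum. Serpinb1a (32842092-32851185), Serpinb6b (32965209-32979067), Serpinb9 (33003250-33017957) and Serpinb6a (33917918-34002794) lie together on chromosome 13, and no window of the Serpinb6a and Serpinb6b ends was shared. Promoter windows from RefSeq (GRCm38.p6), from 250 bases before to 50 after the annotated start, matched 5 of the 6 genes, with no entry for Serpinb1a. They were searched for the interferon-gamma activated site GAS (TTCNNNGAA, its own reverse complement) and the interferon-stimulated core (GAAA, any 2 bases, GAAA) on both strands. GAS letters occurred in 8.30% of 32851 promoter windows and the interferon-stimulated core in 3.44%. The windows below are shown because both Serpina3 genes, Serpinb9 and Serpinb6a hold such letters, given in capitals on the gene's strand. They are chr12:104214294-104214593 for Serpina3f, chr12:104235897-104236196 for Serpina3g, chr13:33004291-33004590 for Serpinb9 and, on the minus strand, chr13:34002745-34003044 for Serpinb6a.
Serpina3f: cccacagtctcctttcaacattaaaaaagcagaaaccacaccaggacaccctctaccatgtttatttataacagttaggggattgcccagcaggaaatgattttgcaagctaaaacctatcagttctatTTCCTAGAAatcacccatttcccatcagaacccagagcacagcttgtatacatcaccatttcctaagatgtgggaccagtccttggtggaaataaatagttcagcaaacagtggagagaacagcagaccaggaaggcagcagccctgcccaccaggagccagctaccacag
Serpina3g: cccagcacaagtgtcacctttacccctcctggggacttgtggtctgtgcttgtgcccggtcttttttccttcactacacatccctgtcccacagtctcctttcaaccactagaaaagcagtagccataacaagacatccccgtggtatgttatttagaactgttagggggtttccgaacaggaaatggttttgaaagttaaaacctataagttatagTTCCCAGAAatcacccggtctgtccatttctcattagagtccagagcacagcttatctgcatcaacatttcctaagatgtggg
Serpinb9: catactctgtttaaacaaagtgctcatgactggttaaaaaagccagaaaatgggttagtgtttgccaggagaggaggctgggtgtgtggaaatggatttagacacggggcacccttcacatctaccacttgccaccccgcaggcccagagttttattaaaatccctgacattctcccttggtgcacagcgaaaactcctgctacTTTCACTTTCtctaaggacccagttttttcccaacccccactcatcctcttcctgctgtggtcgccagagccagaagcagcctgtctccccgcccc
Serpinb6a: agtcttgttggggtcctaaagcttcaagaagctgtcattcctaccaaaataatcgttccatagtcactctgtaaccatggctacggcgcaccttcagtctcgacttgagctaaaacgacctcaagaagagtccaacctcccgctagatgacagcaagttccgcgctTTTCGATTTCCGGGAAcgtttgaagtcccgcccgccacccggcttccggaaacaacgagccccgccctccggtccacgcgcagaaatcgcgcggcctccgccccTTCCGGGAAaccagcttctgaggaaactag
The first RefSeq start of Serpina3f equals the gene start given above, while the RefSeq start of Serpina3g lies upstream of its gene start. Counted from these starts, the GAS letters began at base -121 for Serpina3f and at base -33 for Serpina3g, so the 2 distances are not like for like. Around this match, 37 of 59 bases were identical between the 2 genes without gaps. Serpinb9 held the interferon-stimulated core on the opposite strand at base -46. Serpinb6a held GAS letters at bases -77 and 20, the first overlapping an interferon-stimulated core on the opposite strand at base -84. RefSeq lists a second start for each of 2 genes: from the second Serpina3f start the same GAS letters begin at base -210, and the second Serpinb6a window (chr13:33936034-33936333) held neither motif. The Serpinb6b window (chr13:32965011-32965310) held neither. These matches describe letters in a window and are not shown to be bound.

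The 4 V2 samples held 1442 to 5271 cells with medians of 2774 to 3143 UMIs per cell, and the 14 V3 samples held 148 to 2136 cells with medians of 4731 to 8856.5 UMIs. Levels are UMIs of the gene per 1000000 UMIs summed over a sample's cells (CPM), and depth differs between kits, so V2 and V3 levels are not compared. Cre UMIs occurred only in ∆Foxp3 samples (12 and 17 in V2, 27 and 33 in V3, and 2, 0 and 3 in chimera cells), with 0 in all WT samples. In the matrix, the Foxp3 value sums Foxp3 and Cre UMIs in ∆Foxp3 cells and Foxp3 and GFP UMIs in WT cells. It was 109 and 134 CPM in sorted Treg samples against 1.55 and 3.14 CPM in sorted Tconv samples. The 6 T cell markers were detected in every sample. Cells were grouped by the authors' deposited annotation into Treg-annotated, activated Tconv and resting Tconv classes and into finer clusters. In the 2 V3 samples of ∆Foxp3 mice the resting Tconv class goes against its name: its level of Cxcr3, a receptor of activated T cells, was 82.4% and 78.0% of that in activated Tconv of the same sample. Itgb1 stood at 68.3% and 69.3% there, and S100a4 at 64.4% and 77.0%. In every other sample resting Tconv held 1.1% to 10.2% of the activated level of Cxcr3 and 1.6% to 8.0% of that of S100a4. Results for resting Tconv of these 2 samples are given under the class name with this limit.

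Across all cells, mRNA of each serpin was higher in ∆Foxp3 mice than in WT mice of the same kit, and none of the 6 serpins was called higher in ∆Foxp3 cells of mixed chimeras. In the chimeras only 0.458% of the 10918 genes tested were called in either direction, so 0 of 6 is near the share over all genes. In the V2 samples all 6 serpins were higher in ∆Foxp3 mice than in WT mice of the same age by edgeR's quasi-likelihood test (Benjamini-Hochberg adjusted p below 0.05). Of the 10675 genes tested there, 24% were called in either direction and 14.4% were higher. The median log2 fold change of the 6 serpins was 2.35, beside -0.01 over all genes tested. Because these results were known when the genes were chosen, the V2, chimera and sorted comparisons are no independent support for one another.

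**Figure D1:**
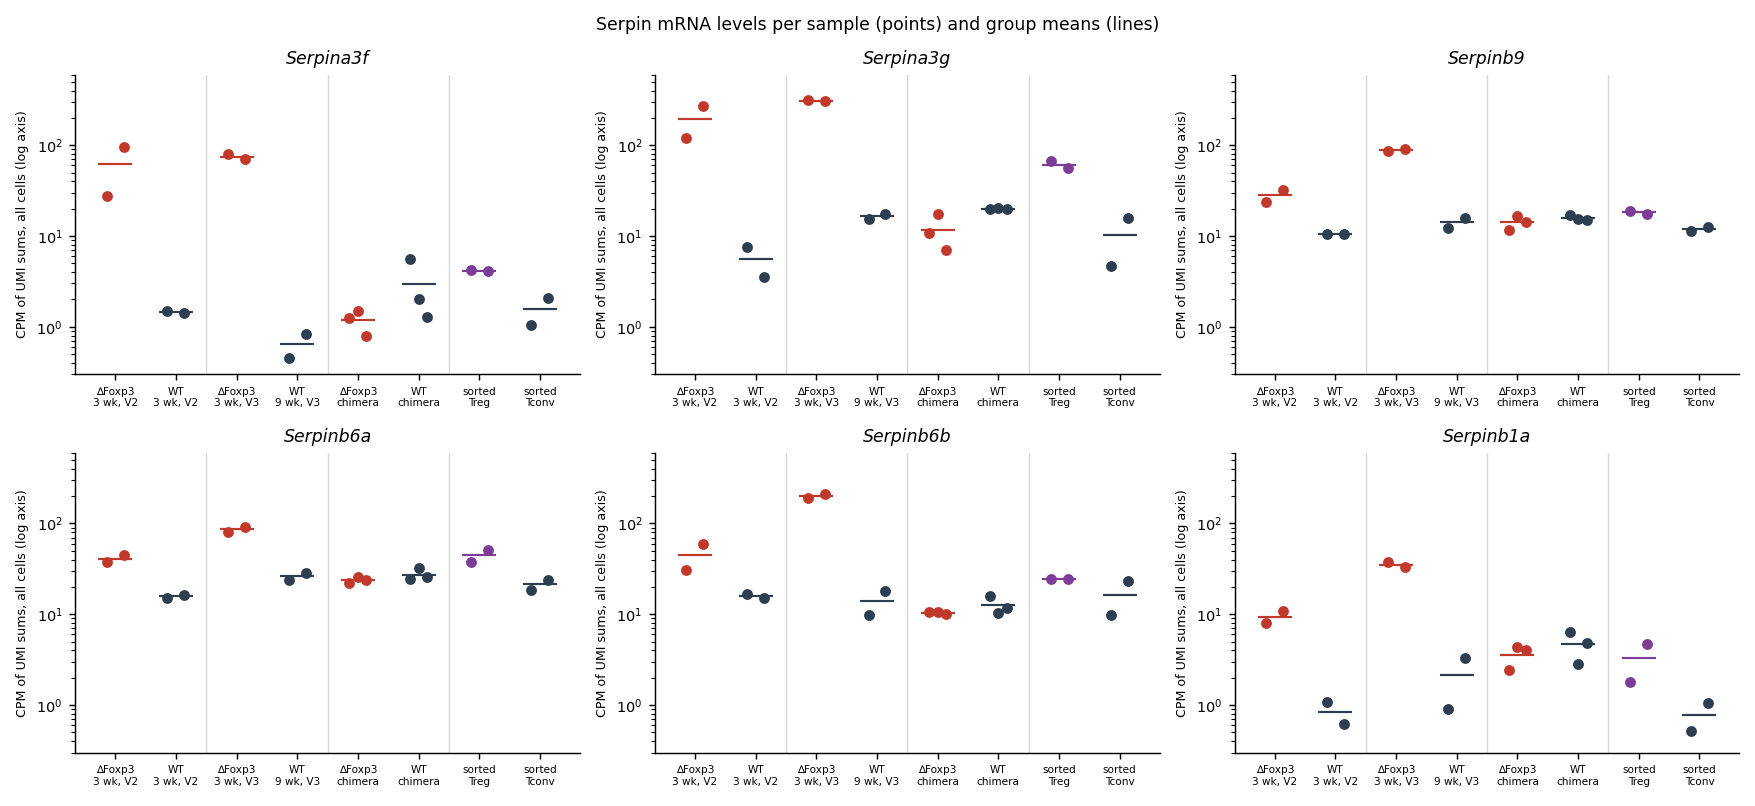
Serpin levels in all cells of each sample, in CPM of summed UMIs on a log axis, with group means as lines, for the V2 pair, the V3 intact pair, the chimera pair and the sorted pair. For every serpin the ∆Foxp3 mice of each kit sit above the WT mice of that kit, while in chimeras Serpina3g lies at 7.01 to 17.5 CPM in ∆Foxp3 cells, below the 19.9 to 20.1 CPM of WT cells.

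Serpina3g, the cathepsin inhibitor, had 120 and 267 CPM in V2 ∆Foxp3 samples A and B, against 7.66 and 3.51 CPM in WT samples A and B. Its log2 fold change was 4.98 ± 0.48 (SE; adjusted p = 0.00213, edgeR, n = 2 each). Both ∆Foxp3 samples were far above both WT samples, and with 1 sample left out, where the lone sample of a V2 group is assumed to vary like the other group, the change ranged from 4.32 without ∆Foxp3 sample B to 5.68 without WT sample A. Serpina3f, its neighbour in the gene cluster, had 27.2 and 96.5 CPM in ∆Foxp3 samples against 1.48 and 1.41 CPM in WT samples. Its log2 fold change was 5.26 ± 0.73 (SE; adjusted p = 0.00573, edgeR), with 4.19 left without ∆Foxp3 sample B and 5.97 without ∆Foxp3 sample A. The 2 ∆Foxp3 samples differed from each other more than the WT samples did, sample B being higher for both genes. Sample B also held more activated Tconv, 38.2% of its cells against 21.8% in sample A, and 11.2% and 12.5% in WT samples; the part of this in the all-cell levels was not tested, and levels within the classes follow.

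In the V3 samples Serpina3g had 315 and 304 CPM in ∆Foxp3 mice, versus 15.4 and 17.5 CPM in WT mice aged 9 weeks. Serpina3f had 79.0 and 71.1 CPM in ∆Foxp3 mice versus 0.458 and 0.833 CPM in WT mice. The groups did not overlap for either gene, and the fitted log2 fold changes were 4.03 ± 0.25 for Serpina3g and 6.70 ± 0.45 for Serpina3f (SE). In WT sample 1, 29 of the 67 Serpina3g UMIs came from 1 cell, and its level was 8.72 CPM without that cell. Over all genes tested in this comparison 43% were called in either direction and 22.1% were higher.

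The share of cells with a UMI moved the same way. In V2 samples a Serpina3g UMI was found in 15.5% and 27.3% of ∆Foxp3 cells against 1.35% and 0.791% of WT cells. After thinning every cell to 1500 UMIs, these shares were 10.1% and 20.3% in ∆Foxp3 samples against 0.797% and 0.485% in WT samples. As background, WT resting Tconv had a Serpina3g UMI in 0.295% and 0.218% of cells (0.204% and 0.0933% thinned), at medians of 2741 and 2857 UMIs per cell, where ∆Foxp3 cells had medians of 3143 and 2872. In V3 samples the shares were 59.2% and 65.7% of ∆Foxp3 cells against 3.56% and 5.97% of WT cells, at medians of 6735 and 8856.5 UMIs in ∆Foxp3 cells against 5181.5 and 6489 UMIs in WT cells. Thinned to 1500 UMIs they were 32% and 31.5% in ∆Foxp3 samples against 1.72% and 1.99% in WT samples, with 0.608% and 0% in WT resting Tconv. In ∆Foxp3 mice no single cell held a large part of the Serpina3g UMIs: the cell with the most held 2.48% and 1.76% of them in the V2 samples and 1.32% and 0.871% in the V3 samples.

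Most cells of ∆Foxp3 mice with a Serpina3f UMI also held Serpina3g. Among cells with a Serpina3f UMI, 70.3% and 75.7% also had a Serpina3g UMI in V2 ∆Foxp3 samples, against 12.8% and 20.8% of the other cells of those samples. In V3 ∆Foxp3 samples the shares were 90.8% and 92.0% of cells with Serpina3f against 49.3% and 56.1% of the others. Serpina3f-positive cells were little deeper than all cells (medians of 3220 and 3072 UMIs in Serpina3f-positive cells against 3143 and 2872 UMIs in all cells of V2 ∆Foxp3 samples). Part of this overlap could come from reads of one copy assigned to the other, which was not tested. The part of the pair's UMIs assigned to Serpina3f was 18.5% (Wilson 95% interval 16.7 to 20.6) and 26.6% (24.4 to 28.8) in V2 ∆Foxp3 samples, against 16.2% (10.9 to 23.3) and 28.6% (18.4 to 41.5) in WT samples. In V3 it was 20.03% (18.6 to 21.5) and 19.0% (17.7 to 20.3) in ∆Foxp3 samples against 2.90% (0.799 to 9.97) and 4.55% (1.26 to 15.1) in WT samples. It was 5.98% (2.93 to 11.8) and 6.82% (3.16 to 14.1) in sorted Treg samples, against 18.2% (5.14 to 47.7) and 11.8% (3.29 to 34.3) in sorted Tconv samples. In chimeras it was 10.5%, 7.89% and 10.1% in ∆Foxp3 cells against 21.7%, 9.05% and 6.09% in WT cells, so the samples outside ∆Foxp3 mice spanned a wide range. Intervals and floors given here cover counting error only.

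In chimeras, where ∆Foxp3 and WT cells shared one animal, neither gene of the pair was called higher in ∆Foxp3 cells. Serpina3g had 10.8, 17.5 and 7.01 CPM in ∆Foxp3 cells against 20.02, 20.1 and 19.9 CPM in WT cells of mice 1, 2 and 3. All 3 ∆Foxp3 samples were below all 3 WT samples, and the log2 fold change was -0.73 ± 0.22 (SE, 95% interval -1.20 to -0.26), which missed the threshold over all genes (adjusted p = 0.192, edgeR, n = 3 each). The share of all genes that separate in this way is not given here. ∆Foxp3 samples 1, 2 and 3 came from 10x channels A, B and A, and WT samples from channels B, A and B, so channel and genotype were not balanced. In ∆Foxp3 sample 1, 71 of 128 Serpina3g UMIs came from 1 cell, and the level was 4.80 CPM without it. Serpina3f had 1.26, 1.501 and 0.789 CPM in ∆Foxp3 cells against 5.54, 2.00 and 1.29 CPM in WT cells. Those groups overlapped, with a log2 fold change of -1.10 ± 0.41 (SE; adjusted p = 0.312, edgeR), and 18 of the 26 Serpina3f UMIs in WT sample 1 came from 1 cell, without which it had 1.71 CPM. None of the 6 serpins was called in chimeras, where 0.458% of 10918 genes were called in either direction (50 genes) and 1077 genes had an unadjusted p below 0.05. DESeq2 also called 0 of the 6. With the mouse as a block, 280 genes and none of the serpins were called. Without the filter on low counts 2 of the 6 were called lower, Serpina3g (adjusted p = 4.4e-07) and Serpina3f (adjusted p = 0.0197), and without ∆Foxp3 sample 2 Serpina3g was called lower (log2 fold change -1.02, adjusted p = 0.00851). The Treg-annotated share, the class with the highest level of the pair, was 2.39%, 4.84% and 2.27% of ∆Foxp3 cells against 9.77%, 8.76% and 8.82% of WT cells, and its part in the all-cell levels was not tested.

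**Figure D2:**
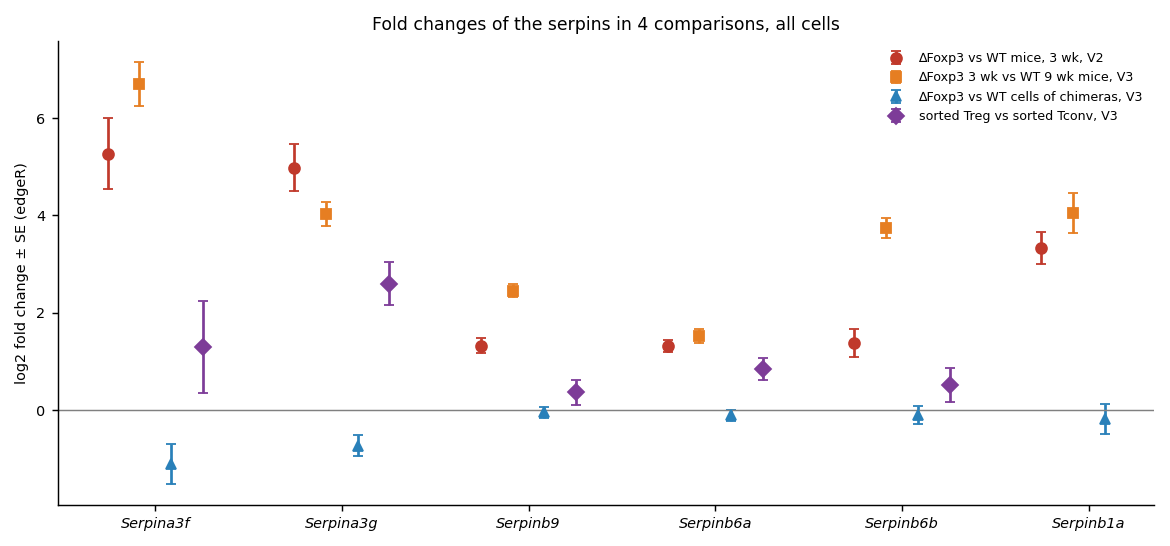
Log2 fold changes with SE from edgeR over all cells for each serpin in the V2 intact, V3 intact, chimera and sorted comparisons, the tested cells over their controls; Serpinb1a in the sorted comparison is left out because both groups held few UMIs. The intact comparisons lie between 1.31 and 6.70, and the chimera points lie between -1.10 and -0.05.

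Sorted Treg cells held more Serpina3g than sorted Tconv cells. Its level was 66.3 and 55.7 CPM in Treg samples against 4.65 and 15.7 CPM in Tconv samples, with no overlap. The log2 fold change was 2.60 ± 0.44 (SE; adjusted p = 0.0011, edgeR, n = 2 each). It was 1.76 without Tconv sample 1, where it missed the threshold (adjusted p = 0.0870), and 3.41 without Tconv sample 2. Serpina3f had 4.22 and 4.07 CPM in Treg samples against 1.03 and 2.09 CPM in Tconv samples, a log2 fold change of 1.30 ± 0.94 (SE) that missed the threshold (adjusted p = 0.437, edgeR). Without cells of the NKT cluster it was 3.23 and passed (adjusted p = 0.0433, edgeR). With all cells these Serpina3f values rest on only 7 and 6 UMIs in Treg samples and 2 and 2 in Tconv samples. A Serpina3g UMI was found in 14.8% and 16.5% of Treg cells against 1.38% and 8.78% of Tconv cells. Thinned to 1500 UMIs the shares were 7.85% and 6.06% of Treg cells against 0.829% and 2.7% of Tconv cells. Among the 6 V3 groups the mean Serpina3g level was 310 ± 8.0 CPM in ∆Foxp3 mice, 61.0 ± 7.5 in sorted Treg cells, 20.002 ± 0.12 in WT chimera cells, 16.4 ± 1.5 in WT mice, 11.8 ± 5.3 in ∆Foxp3 chimera cells and 10.2 ± 7.8 in sorted Tconv cells (SD, n = 2 or 3). The 3 lowest groups overlapped, and the sorted Treg and ∆Foxp3 groups stood clear of all others.

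Within every annotated class the pair was higher in ∆Foxp3 mice than in WT mice of the same kit. In V2 samples 5 of the 6 serpins were higher in activated Tconv of ∆Foxp3 mice than of WT mice, where 15.2% of 8170 genes were called (9.16% higher). In resting Tconv 5 of the 5 serpins tested were higher (19.6% of 10071 genes called, 12% higher), and in Treg-annotated cells 3 of the 5 tested were higher (16.3% of 5492 genes called, 8.54% higher). Serpina3g in Treg-annotated cells had 599 and 801 CPM in ∆Foxp3 samples against 45.9 and 19.2 CPM in WT samples (log2 fold change 4.28 ± 0.23 SE, adjusted p = 9.84e-12, edgeR). In activated Tconv it had 311 and 453 CPM in ∆Foxp3 samples against 35.3 and 14.5 CPM in WT samples (3.89 ± 0.28, adjusted p = 2.53e-05). In resting Tconv it had 19.98 and 51.7 CPM in ∆Foxp3 samples against 1.22 and 0.754 CPM in WT samples (4.92 ± 0.55, adjusted p = 0.000991). The 2 groups did not overlap in any of these classes, and within each genotype Treg-annotated cells were highest and resting Tconv lowest in these V2 samples. Serpina3f had 178 and 389 CPM in V2 Treg-annotated cells of ∆Foxp3 mice versus 2.70 and 0 CPM in WT mice. With 244 against 2 UMIs the ratio was 168 (95% interval 46.0 to 1395). In V2 activated Tconv it had 64.9 and 141 CPM in ∆Foxp3 samples against 9.24 and 8.54 CPM in WT samples (3.49 ± 0.41, adjusted p = 0.000494). In resting Tconv it had 3.08 and 19.3 CPM in ∆Foxp3 samples against 0.244 and 0.323 CPM in WT samples (4.82 ± 1.07, adjusted p = 0.0174). The 19.3 CPM of ∆Foxp3 sample B was 2.62 CPM without cells that held markers of other cell types. Over all classes that rule took out 66.0% of this sample's cells, and a rule with only specific markers 2.36%. The wider rule counts 4 globin genes, which stood at 603 CPM in activated and 605 CPM in resting Tconv of this sample. Their part in the lower value was not tested. In resting Tconv 2 serpins, not 5, were called without WT sample A or without WT sample B, and 3 without ∆Foxp3 sample A; Serpina3f lost its call without WT sample A (adjusted p = 0.0961) and without WT sample B (adjusted p = 0.0602), and Serpina3g kept its call in each.

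In the V3 samples Serpina3g had 769 and 754 CPM in Treg-annotated cells of ∆Foxp3 mice versus 34.7 and 108 CPM in WT mice aged 9 weeks. In activated Tconv it had 299 and 296 CPM in ∆Foxp3 mice versus 37.1 and 44.8 CPM in WT mice. In cells annotated as resting Tconv it had 274 and 248 CPM in ∆Foxp3 mice versus 10.2 and 1.14 CPM in WT mice. These are the 2 samples whose resting class carries markers of activated cells, and 29 of the 36 UMIs behind the 10.2 CPM came from 1 cell. Serpina3f had 308 and 310 CPM in Treg-annotated cells of ∆Foxp3 mice and no UMI in those of WT mice: 314 against 0 UMIs, at least 38.9-fold higher, with 3 counts set as the floor for the whole WT group. In resting Tconv 343 against 0 UMIs gave at least 82.1-fold. In chimeras 0 of the 6 serpins was called in any class, where 0.137% of genes in activated Tconv, 1.28% in resting Tconv and 0.359% in Treg-annotated cells were called. Serpina3g in Treg-annotated chimera cells had 15.6, 141 and 88.7 CPM in ∆Foxp3 samples against 83.4, 113 and 63.4 CPM in WT samples, which overlap. In activated Tconv it had 16.8, 40.2 and 25.2 CPM in ∆Foxp3 samples against 34.2, 45.5 and 44.6 CPM in WT samples.

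**Figure D3:**
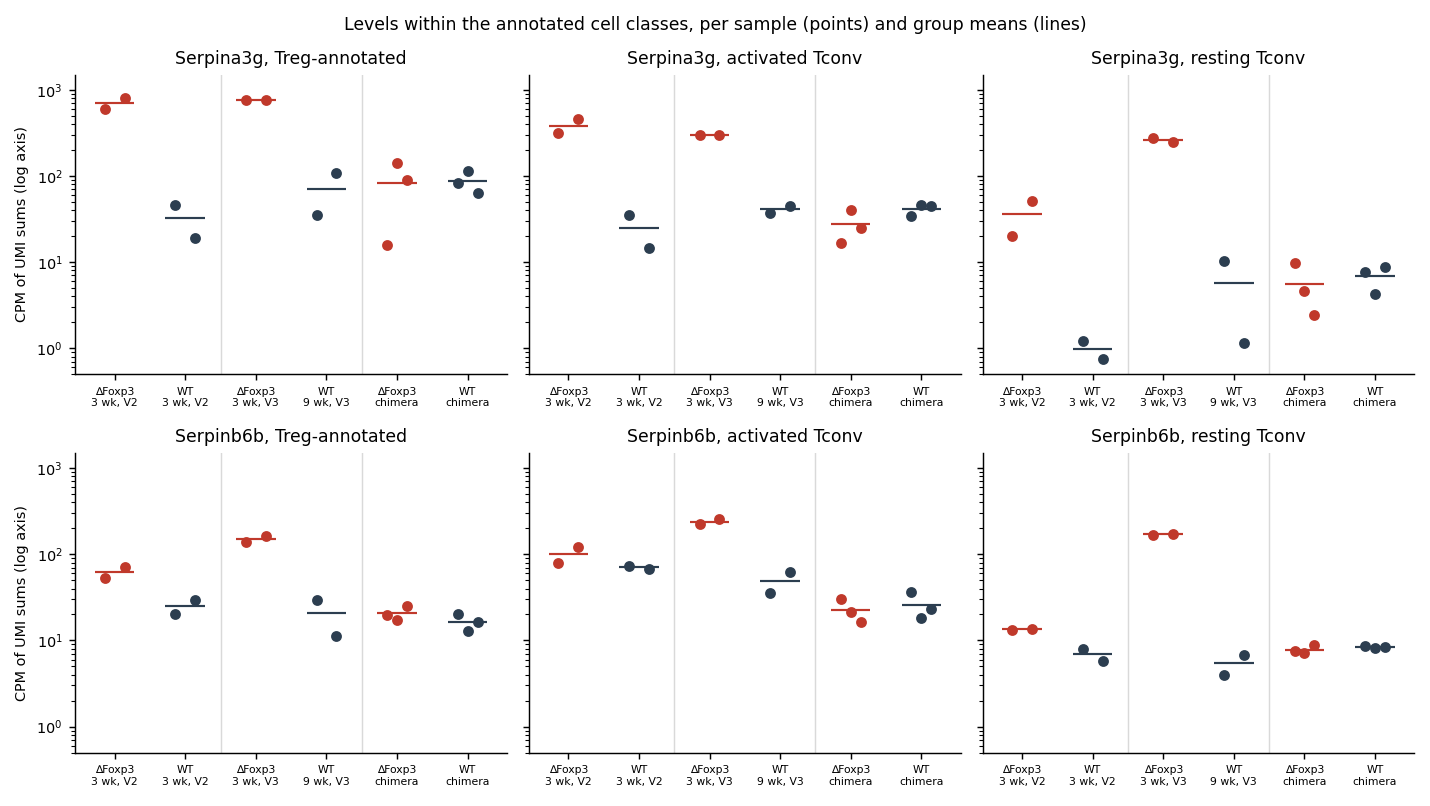
Serpina3g and Serpinb6b levels per sample within Treg-annotated cells, activated Tconv and resting Tconv, in CPM on a log axis, with group means as lines. Serpina3g of ∆Foxp3 mice lies above WT mice in each class of each kit, and Serpinb6b of V2 activated Tconv nearly meets, 78.8 and 122 CPM in ∆Foxp3 samples beside 73.3 and 67.0 CPM in WT samples.

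By cluster, cells annotated as activated Treg had the highest mean level of the pair in V2 ∆Foxp3 and WT mice, in V3 ∆Foxp3 mice and in both chimera groups. In sorted Treg samples the cluster annotated as furtive Treg (126 ± 38.0 CPM) and activated Treg (126 ± 61.1 CPM) overlapped (SD, n = 2). In V3 WT mice no activated Treg cluster reached 20 cells. In V2 ∆Foxp3 samples the sum of Serpina3f and Serpina3g averaged 1511 ± 186 CPM in the activated Treg cluster and 1400 ± 52.5 CPM in the NKT cluster (SD, n = 2), and these 2 overlapped. The follicular helper (Tfh) cluster had 619 ± 396 CPM, the second activated cluster 524 ± 405 and the Th1 cluster 390 ± 65.5, with ranges that overlap. The resting Treg cluster had 48.6 ± 33.4 CPM and the largest resting Tconv cluster 32.2 ± 16.9 CPM. In V2 WT samples the activated Treg cluster was also first by its mean, with 123 ± 112 CPM, followed by NKT (49.2 ± 2.38) and Th1 (49.0 ± 24.9), all with overlapping ranges, and the largest resting Tconv cluster had 1.04 ± 0.232 CPM. In V3 the activated Treg cluster held 1407 ± 5.20 CPM in ∆Foxp3 mice, 154 ± 104 CPM in ∆Foxp3 chimera cells and 204 ± 61.4 CPM in WT chimera cells. Tfh held 529 ± 8.63 CPM in ∆Foxp3 mice, 29.6 ± 21.2 in ∆Foxp3 chimera cells and 57.1 ± 13.7 in WT chimera cells. Clusters were made by the authors from the same cells, so no test was made between them.

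**Figure D4:**
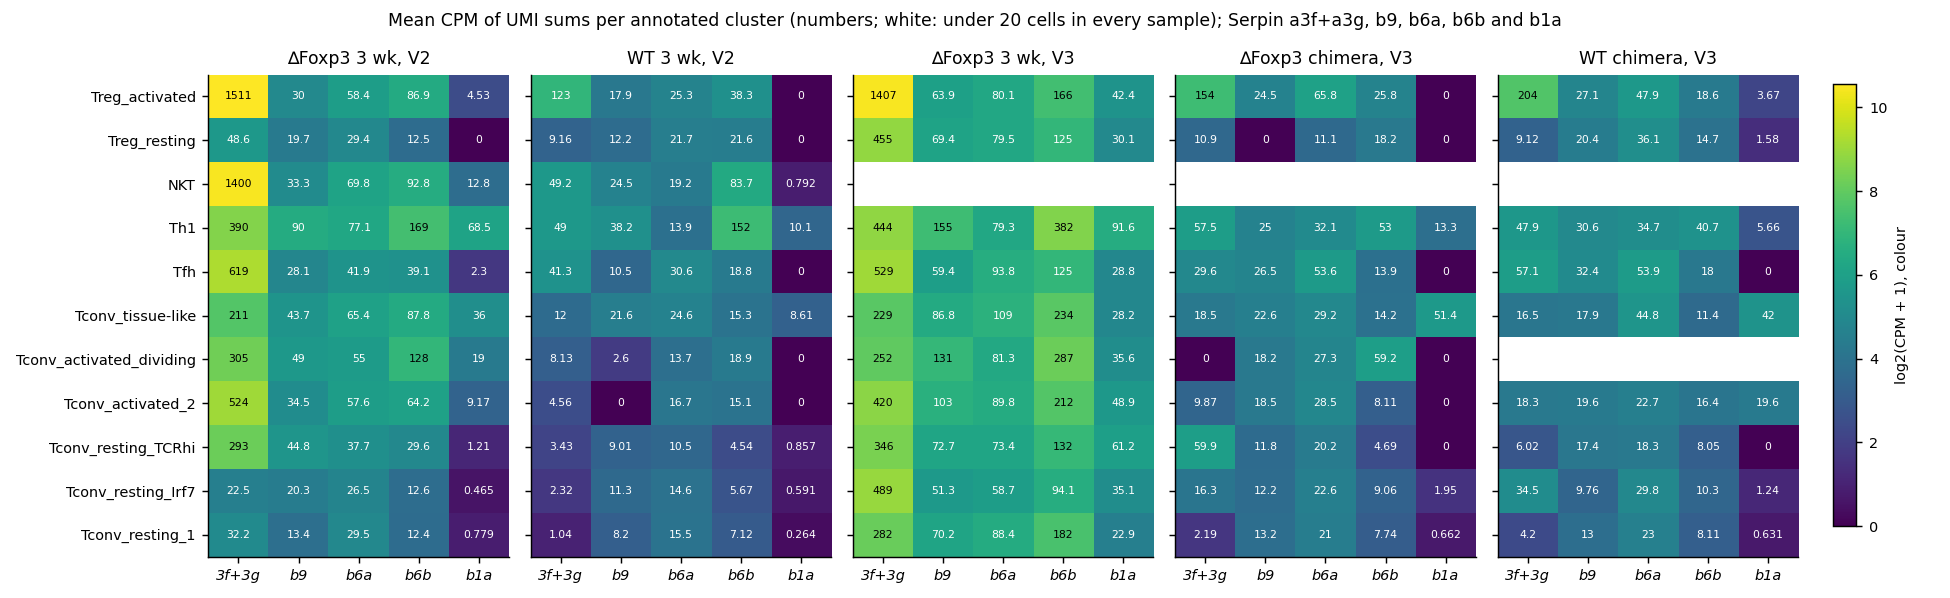
Mean CPM by annotated cluster (rows) for the Serpina3f and Serpina3g sum and the 4 clade B serpins (columns), in 5 groups, with colour as log2(CPM + 1) and white for clusters with too few cells. The pair is highest in activated Treg and NKT cells of ∆Foxp3 mice (1511 and 1400 CPM in V2), while Serpinb9, Serpinb6b and Serpinb1a are highest in Th1 cells there (90.0, 169 and 68.5 CPM).

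Serpinb9, the granule serpin that blocks granzyme B and is known to protect killer lymphocytes from their own granules, had 23.8 and 32.3 CPM in V2 ∆Foxp3 samples against 10.5 and 10.5 CPM in WT samples. The log2 fold change was 1.33 ± 0.16 (SE; adjusted p = 0.00411, edgeR, n = 2 each), and no ∆Foxp3 value reached the WT range. In V3 it had 85.4 and 90.8 CPM in ∆Foxp3 mice versus 12.4 and 15.8 CPM in WT mice, a log2 fold change of 2.46 ± 0.14 (SE). In chimeras it had 11.7, 16.5 and 14.3 CPM in ∆Foxp3 cells against 17.04, 15.5 and 14.9 CPM in WT cells. Those values overlap, and the interval of the log2 difference ran from -0.29 to 0.20. Sorted Treg cells had 18.7 and 17.7 CPM against 11.4 and 12.6 CPM in sorted Tconv cells, a difference of 0.36 ± 0.26 (SE) that missed the threshold (adjusted p = 0.498, edgeR). Within V2 classes Serpinb9 was higher in activated Tconv (42.1 and 58.8 CPM in ∆Foxp3 samples against 23.4 and 21.0 CPM in WT samples; 1.16 ± 0.22, adjusted p = 0.00641, edgeR). Without cells with markers of other cell types, Serpinb9 was not called there (0.93, adjusted p = 0.0814, edgeR). It was also higher in resting Tconv (17.3 and 15.3 CPM in ∆Foxp3 samples against 8.29 and 8.72 CPM in WT samples; 0.96 ± 0.16, adjusted p = 0.00536), a call lost without ∆Foxp3 sample A (adjusted p = 0.0601), WT sample A (0.0873) or WT sample B (0.0550). In Treg-annotated cells it missed the threshold, with 31.6 and 19.9 CPM in ∆Foxp3 samples against 16.2 and 10.5 CPM in WT samples (adjusted p = 0.179, edgeR). Its highest cluster was Th1, with 90.0 ± 21.5 CPM in V2 ∆Foxp3 samples against 38.2 ± 5.14 CPM in WT samples (SD, n = 2), and these did not overlap. Dividing activated Tconv held 49.0 ± 0.399 CPM in ∆Foxp3 samples against 2.60 ± 3.68 CPM in WT samples. The WT value there rests on 0 and 1 UMIs in 29 and 67 cells, beside 11 and 13 UMIs in ∆Foxp3 samples.

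Serpinb6b, a close relative of Serpinb6a known in the mouse as an inhibitor of granzyme A, had 30.5 and 59.8 CPM in V2 ∆Foxp3 samples against 16.7 and 15.2 CPM in WT samples (log2 fold change 1.38 ± 0.29 SE, adjusted p = 0.0194, edgeR). This call was lost without WT sample A (adjusted p = 0.0966) or WT sample B (adjusted p = 0.0980). In V3 it had 193 and 213 CPM in ∆Foxp3 mice versus 9.85 and 17.9 CPM in WT mice, a log2 fold change of 3.74 ± 0.20 (SE). The ∆Foxp3 and WT groups did not overlap in either kit. In chimeras it had 10.6, 10.5 and 10.1 CPM in ∆Foxp3 cells against 15.8, 10.2 and 11.8 CPM in WT cells (interval of the log2 difference -0.48 to 0.30). Sorted Treg cells had 24.7 and 24.4 CPM against 9.82 and 23.0 CPM in sorted Tconv cells (0.51 ± 0.35, adjusted p = 0.408, edgeR). Within V2 activated Tconv it was the serpin that missed the threshold: 78.8 and 122 CPM in ∆Foxp3 samples against 73.3 and 67.0 CPM in WT samples, a log2 fold change of 0.49 ± 0.19 (SE; adjusted p = 0.118, edgeR). Without ∆Foxp3 sample A it was 0.80 (adjusted p = 2.18e-05), a value that takes the spread from the 2 WT samples alone. It was higher in V2 resting Tconv (13.3 and 13.6 CPM in ∆Foxp3 samples against 7.96 and 5.81 CPM in WT samples; 0.93 ± 0.20, adjusted p = 0.0165 by edgeR and 0.0825 by DESeq2) and in Treg-annotated cells (53.2 and 71.0 CPM in ∆Foxp3 samples against 20.2 and 29.7 CPM in WT samples; 1.23 ± 0.34, adjusted p = 0.0146 by edgeR and 0.256 by DESeq2). Without cells with markers of other cell types, Serpinb6b was not called in Treg-annotated cells (0.81, adjusted p = 0.288, edgeR). The resting Tconv call was lost without ∆Foxp3 sample A (adjusted p = 0.0828), WT sample A (0.0591) or WT sample B (0.147), and the Treg-annotated call without WT sample A (0.164). Th1 was its highest cluster in both genotypes of V2, with 169 ± 41.4 CPM in ∆Foxp3 samples against 152 ± 29.5 CPM in WT samples, which overlap. NKT cells likewise had 92.8 ± 30.6 CPM in ∆Foxp3 samples against 83.7 ± 4.79 CPM in WT samples. Dividing activated Tconv differed more, with 128 ± 49.5 CPM in ∆Foxp3 samples against 18.9 ± 4.61 CPM in WT samples, and tissue-like Tconv had 87.8 ± 24.2 CPM in ∆Foxp3 samples against 15.3 ± 4.98 CPM in WT samples (SD, n = 2). These WT values rest on few Serpinb6b UMIs, 2 and 3 in dividing and 4 and 5 in tissue-like cells. No test was made between clusters.

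Serpinb6a, a broadly expressed inhibitor of cathepsin G and trypsin-like proteases, had 37.7 and 44.5 CPM in V2 ∆Foxp3 samples against 15.2 and 16.4 CPM in WT samples (log2 fold change 1.31 ± 0.12 SE, adjusted p = 0.00189, edgeR). In V3 it had 81.1 and 91.8 CPM in ∆Foxp3 mice versus 24.1 and 28.3 CPM in WT mice (1.52 ± 0.15 SE). The groups did not overlap in either kit. In chimeras it had 22.0, 25.8 and 23.9 CPM in ∆Foxp3 cells against 24.3, 32.0 and 25.9 CPM in WT cells (interval of the log2 difference -0.35 to 0.14). Sorted Treg cells had 38.0 and 51.6 CPM against 18.6 and 24.1 CPM in sorted Tconv cells, and Serpinb6a was called higher there (0.85 ± 0.23 SE, adjusted p = 0.0229, edgeR), the second of 2 serpins so called beside Serpina3g. In that comparison 12.2% of 10918 genes were called in either direction and 6.16% were higher. The Serpinb6a call was lost without Tconv sample 1 (0.68, adjusted p = 0.315), without Treg sample 2 (0.67, adjusted p = 0.180) and without cells with markers of other cell types (0.59, adjusted p = 0.271). In V2 it was higher in activated Tconv (63.2 and 63.1 CPM in ∆Foxp3 samples against 19.0 and 16.4 CPM in WT samples; 1.82 ± 0.18, adjusted p = 0.000159) and in resting Tconv (28.97 and 30.2 CPM in ∆Foxp3 samples against 13.98 and 16.3 CPM in WT samples; 0.96 ± 0.13, adjusted p = 0.0022). In Treg-annotated cells it had 44.9 and 51.1 CPM in ∆Foxp3 samples against 25.6 and 19.2 CPM in WT samples and missed the threshold (0.99 ± 0.35, adjusted p = 0.0624, edgeR). Resting Tconv held 45.8% and 47.9% of the activated Tconv level in V2 ∆Foxp3 samples against 73.5% and 98.9% in WT samples.

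Serpinb1a, known as an inhibitor of neutrophil elastase and related proteases of neutrophils, had 8.05 and 10.8 CPM in V2 ∆Foxp3 samples against 1.07 and 0.615 CPM in WT samples (log2 fold change 3.33 ± 0.32 SE, adjusted p = 0.00227, edgeR). In V3 it had 37.5 and 33.1 CPM in ∆Foxp3 mice versus 0.916 and 3.33 CPM in WT mice, a log2 fold change of 4.05 ± 0.42 (SE) that was 3.20 without WT sample 1 and 5.004 without WT sample 2. The groups did not overlap in either kit. In chimeras it had 2.44, 4.34 and 4.03 CPM in ∆Foxp3 cells against 6.39, 2.84 and 4.78 CPM in WT cells (interval of the log2 difference -0.85 to 0.47). Sorted Treg cells held 10 UMIs of it in all against 2 in sorted Tconv cells, a ratio of 4.61 (95% interval 0.983 to 43.3). It was higher in V2 activated Tconv, with 30.8 and 27.6 CPM in ∆Foxp3 samples against 6.52 and 2.63 CPM in WT samples (2.61 ± 0.35, adjusted p = 0.000887, edgeR). In V2 resting Tconv it had too few counts to be tested, 1.07 and 0.438 CPM in ∆Foxp3 samples against 0.325 and 0.323 CPM in WT samples, and in V2 Treg-annotated cells 3 against 0 UMIs. In V3 resting Tconv 197 UMIs in ∆Foxp3 mice versus 3 in WT mice gave a ratio of 47.1 (15.9 to 231), and in Treg-annotated cells 39 against 1 UMI gave 14.5 (2.45 to 587). Th1 cells were highest in V2 with 68.5 ± 13.8 CPM in ∆Foxp3 samples against 10.1 ± 9.89 CPM in WT samples, followed by tissue-like Tconv with 36.0 ± 9.91 CPM in ∆Foxp3 samples against 8.61 ± 3.82 CPM in WT samples (SD, n = 2). These WT values rest on few Serpinb1a UMIs, 9 and 1 in Th1 and 2 and 3 in tissue-like cells. In the chimeras tissue-like Tconv were highest in both genotypes, with a mean of 51.4 CPM in ∆Foxp3 cells and 42.0 CPM in WT cells. The 8 neutrophil markers summed to 9.01 and 0 CPM in V2 ∆Foxp3 samples against 1.95 and 0.176 CPM in WT samples. In V3 they summed to 1.25 and 6.36 CPM in ∆Foxp3 mice versus 0.458 and 6.24 CPM in WT mice. In V2 ∆Foxp3 sample B Serpinb1a was at 10.8 CPM while 0 of the 8 neutrophil markers had a UMI.

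The clade B serpins of the V3 intact mice had the following levels by class, as description. In activated Tconv Serpinb9 had 108 and 108 CPM in ∆Foxp3 mice versus 13.9 and 27.8 CPM in WT mice aged 9 weeks, and Serpinb6b had 224 and 253 CPM in ∆Foxp3 mice versus 35.6 and 61.9 CPM in WT mice. Serpinb6a had 84.3 and 93.4 CPM in ∆Foxp3 mice versus 47.9 and 40.6 CPM in WT mice, and Serpinb1a had 44.6 and 39.9 CPM in ∆Foxp3 mice versus 1.55 and 14.9 CPM in WT mice. No ∆Foxp3 sample reached into the WT range for any of the 4 in this class, with 2 samples a group. The share of all genes that separate in this way is not given here. In Treg-annotated cells Serpinb6b had 140 and 162 CPM in ∆Foxp3 mice versus 29.8 and 11.4 CPM in WT mice, and Serpinb9 had 39.7 and 92.0 CPM in ∆Foxp3 mice versus 19.8 and 17.1 CPM in WT mice. Serpinb6a had 56.1 and 102 CPM in Treg-annotated cells of ∆Foxp3 mice versus 29.8 and 51.2 CPM in those of WT mice. These WT values rest on few UMIs from 37 and 29 Treg-annotated cells: 6 and 2 of Serpinb6b, 4 and 3 of Serpinb9, and 6 and 9 of Serpinb6a. Without cells that held markers of other cell types, Serpinb9 had 23.0 and 77.1 CPM in ∆Foxp3 mice versus 32.7 and 28.3 CPM in WT mice, which overlap. Serpinb6a then had 57.5 and 56.6 CPM in ∆Foxp3 mice versus 40.9 and 56.5 CPM in WT mice. Serpinb6b had 127 and 87.4 CPM in ∆Foxp3 mice versus 8.19 and 18.8 CPM in WT mice. Over all classes of these V3 mice the rule took out 53.2% and 67.8% of ∆Foxp3 cells, against 19.5% and 30.97% of WT cells. A rule with only specific markers took out 6.59% and 14.3% of ∆Foxp3 cells, against 2.21% and 6.25% of WT cells. The wider rule counts Cst3, which had UMIs in each of these samples. The part of this uneven removal in the values without marker cells was not tested. In cells annotated as resting Tconv Serpinb9 had 67.6 and 70.1 CPM in ∆Foxp3 mice versus 11.7 and 12.5 CPM in WT mice, and Serpinb6b had 168 and 172 CPM in ∆Foxp3 mice versus 3.98 and 6.83 CPM in WT mice. Serpinb6a had 80.9 and 88.2 CPM in ∆Foxp3 mice versus 19.3 and 22.8 CPM in WT mice, again in the class that carries activation markers in ∆Foxp3 mice. Of the genes tested, 10% were called in activated Tconv, 41.5% in resting Tconv and 7.09% in Treg-annotated cells.

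The resting and activated classes differed in how far each serpin separated them. In V2 the sum of Serpina3f and Serpina3g in resting Tconv was 6.1% and 11.95% of its activated level in ∆Foxp3 samples against 3.3% and 4.7% in WT samples. In V3 ∆Foxp3 mice it was 86.8% and 80.5%, in the 2 samples where Cxcr3 stood at 82.4% and 78.0%. Serpinb6b showed the same order, with 16.9% and 11.1% in V2 ∆Foxp3 samples and 74.9% and 67.8% in V3 ∆Foxp3 samples. Serpinb1a had 3.5% and 1.6% in V2 ∆Foxp3 samples and 67.0% and 60.9% in V3 ∆Foxp3 samples. Serpinb9 and Serpinb6a did not set the V3 ∆Foxp3 samples apart. Serpinb9 had 62.6% and 65.0% in them, beside 83.8% in V3 WT sample 1. Serpinb6a had 96.0% and 94.4% in them, beside 98.9% in V2 WT sample B. Lgals1 and Gzmb separated the classes less evenly. Lgals1 stood at 61.2% and 77.8% in V3 ∆Foxp3 samples and at 8.7% to 23.8% in all others. Gzmb stood at 40.3% and 81.1% in V3 ∆Foxp3 samples, but also at 75.3% and 31.004% in ∆Foxp3 chimera samples 2 and 3. Cells called resting in the 2 kits are not alike in ∆Foxp3 mice, and levels of this class in V3 are those of cells that carry activation markers.

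**Figure D5:**
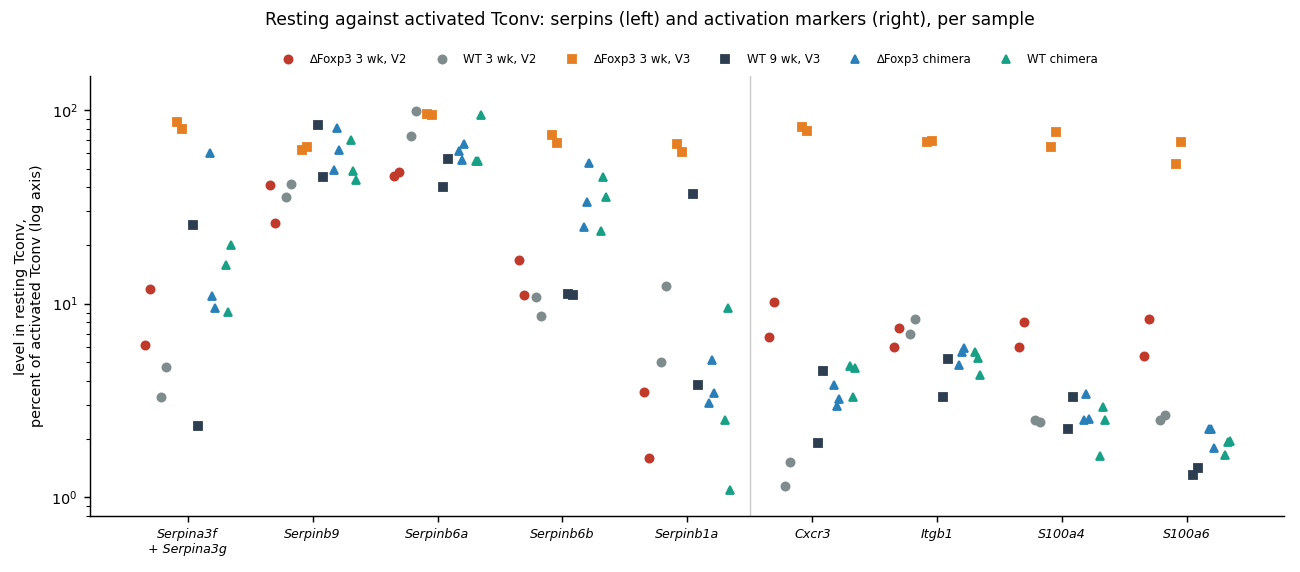
Level in resting Tconv as percent of the level in activated Tconv of the same sample (log axis) for the serpins on the left and Cxcr3, Itgb1, S100a4 and S100a6 on the right, 1 point per sample. The V3 ∆Foxp3 samples (squares, orange) lie at 52.8% to 96.0% for these serpins and markers, while in all other samples these 4 markers lie at or below 10.2%. Serpinb9 and Serpinb6a do not set the V3 ∆Foxp3 samples apart: Serpinb9 lies at 83.8% in V3 WT sample 1 and Serpinb6a at 98.9% in V2 WT sample B.

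The genotype contrast of intact V3 mice exceeded that of the chimeras for each serpin, described without a test because the first contrast chose the genes. The difference of the 2 log2 fold changes was 7.81 ± 0.68 for Serpina3f, 4.76 ± 0.34 for Serpina3g, 4.24 ± 0.55 for Serpinb1a and 3.84 ± 0.28 for Serpinb6b (SE). It was 2.51 ± 0.19 for Serpinb9 and 1.62 ± 0.19 for Serpinb6a. Over all 10918 genes tested, 36.8% were called for this difference and 18.7% were higher. Age differs in the intact pair (3 and 9 weeks) and not in the chimera pair, so genotype, age and the presence of WT Treg cells cannot be told apart in it. The V2 pair, at 3 weeks in both genotypes, had the same direction for all 6.

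Granule genes, cathepsins and caspases, which include known serpin targets, were counted in V2 all cells, where 24% of all genes tested were called and 14.4% were higher, with a median log2 fold change of -0.01. Among 7 granule genes, all tested, 4 were higher and 0 lower, with a median of 1.21. They were Gzma (5.19), Gzmb (5.06), Gzmk (2.48) and Srgn (1.21), the last a proteoglycan that packs granules and no protease. Prf1, the pore former perforin, had 1.63 and 0.469 CPM in ∆Foxp3 samples against 1.01 and 0.703 CPM in WT samples, and Gzmc had 0.959 and 2.34 CPM in ∆Foxp3 samples against 1.68 and 1.32 CPM in WT samples; both overlap. Gzmb, the target of Serpinb9, had 131 and 220 CPM in ∆Foxp3 samples against 4.57 and 5.45 CPM in WT samples, and Gzma, the target of Serpinb6b, had 316 and 325 CPM in ∆Foxp3 samples against 11.3 and 5.18 CPM in WT samples. Of 9 cathepsins tested out of 11, 5 were higher and 2 lower. Ctse, an aspartic cathepsin, fell by 3.82 on the log2 scale, to 11.2 and 14.1 CPM in ∆Foxp3 samples against 165 and 169 CPM in WT samples, while Ctsw (1.05), Ctsa (0.95) and Ctsd (0.88) were higher. Of 6 caspases 4 were higher and 0 lower, led by Casp4 (3.14) and Casp1 (2.78). The 3 neutrophil serine proteases that Serpinb1a is known for stood at 0 to 0.139 CPM in every sample and could not be tested. Of 7 tested cystatins and other protease inhibitors, out of 13 in the matrix, 3 were higher (Cst7 2.38, Timp2 0.69, Cstb 0.30) and 1 lower (Slpi -2.56). Of 15 activation genes 12 were higher and 1 lower, and of 10 naive T cell genes 0 were higher and 6 lower.

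In the V3 intact mice 5 of 7 granule genes were called higher (median 1.498), beside 43% of all genes called and 22.1% higher, in the contrast that chose the serpins. In chimeras, where 0.458% of all genes were called, 0 of 7 granule genes were called, with a median log2 fold change of -0.03. Ctse was the 1 cathepsin called there, with a log2 fold change of -2.93. In sorted Treg cells against sorted Tconv cells, Cst7 was higher by 2.37 (log2), beside 6.16% of all genes higher. These lists were written with earlier results known, and the counts carry no test of their own.

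Of the 15 other serpins with a UMI, 2 were tested in V2: Serpinf1 was higher in ∆Foxp3 mice (log2 fold change 4.56 ± 0.79 SE, adjusted p = 0.0113, edgeR) and Serpini1, the brain serpin neuroserpin, was not called (-0.02 ± 0.19). In V3 the highest of them by mean level was Serpini1 with 6.77 CPM, followed by Serpinb9b (2.16), Serpinf1 (1.12), Serpinc1 (1.003) and Serpina9 (0.81). Serpinb9b, a relative of Serpinb9, had 10.98 and 17.5 CPM in V3 ∆Foxp3 mice versus 0.229 and 0.416 CPM in WT mice. In chimeras and in the sorted comparison 0 of the 5 tested were called.

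Over the 36 V3 sums by sample and class, the genes whose log2 CPM ran most closely with the sum of Serpina3f and Serpina3g were AW112010 (r = 0.931), Pglyrp1 (0.930), Unc119 (0.926), Tap1 (0.921) and Ptp4a2 (0.920). Over the 12 V2 sums their correlations were 0.956, 0.936, 0.883, 0.889 and 0.799. For Serpinb9 the closest were Rbm3 (0.897) and Btf3 (0.877), for Serpinb6a Gimap5 (0.903) and Sec61g (0.887), for Serpinb6b Ctsd (0.928) and Prelid1 (0.928), and for Serpinb1a Arhgdia (0.884) and Vim (0.880). The sums of one sample share a library and its depth, so these are descriptions. Among the serpins themselves the pair ran most closely with Serpinb6a (0.887 in V3 and 0.900 in V2) and least with Serpinb1a (0.601 in V3), and Serpinb9 with Serpinb6b (0.825 in V3).

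Signs of other cell types moved with genotype in part. The 6 myeloid markers, of which all 6 had a UMI in both V3 ∆Foxp3 samples, summed to 196 and 208 CPM in those samples against 84.1 and 97.8 CPM in WT samples, mostly Cst3 (182 and 187 CPM in ∆Foxp3 samples against 79.0 and 89.1 CPM in WT samples). Lyz2 had 1.81 and 8.05 CPM in V3 ∆Foxp3 samples against 3.44 and 3.75 CPM in WT samples. In V2 the myeloid sum was 112 and 130 CPM in ∆Foxp3 samples against 92.2 and 92.3 CPM in WT samples. The 6 B cell markers summed to 20.3 and 20.6 CPM in V3 ∆Foxp3 samples against 11.9 and 9.57 CPM in WT samples. The 6 CD8 T and NK markers summed to 59.2 and 63.7 CPM in V2 ∆Foxp3 samples against 40.4 and 34.6 CPM in WT samples. The 5 erythroid markers summed to 132 and 605 CPM in V2 ∆Foxp3 samples A and B against 183 and 129 CPM in WT samples, so they were highest in the sample with the higher Serpina3f and Serpina3g. In V3 they summed to 12.8 and 10.4 CPM in ∆Foxp3 mice versus 8.48 and 1.67 CPM in WT mice. The median percent of mitochondrial UMIs per cell was 2.28 and 2.23 in V2 ∆Foxp3 samples against 2.76 and 2.66 in WT samples, and 5.04 and 4.93 in V3 ∆Foxp3 samples against 7.16 and 7.22 in WT samples. Cells with at least 2 UMIs of these marker lists made up 27.0% and 66.0% of V2 ∆Foxp3 samples A and B against 25.1% and 18.8% of WT samples. In V3 they made up 53.2% and 67.8% of ∆Foxp3 samples against 19.5% and 30.97% of WT samples. In the sorted samples they made up 35.3% and 51.9% of Treg cells against 20.7% and 24.3% of Tconv cells. Without those cells the 6 serpins were called higher in V2 all cells, as with them. The part of these signs in the other results was not tested.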

How the data were processed

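The authors deposited 1 matrix of whole-number UMI counts per gene and cell, for which the submitters' processing notes name Cell Ranger 3.0.2 and the mm10 build, and a metadata table with each cell's sample, General class, Detailed cluster, percent of mitochondrial counts and Scrublet doublet score per the file headers. The sources used here do not state whether counting used the strand. The largest deposited score was 0.293, and no doublet caller was run. In all, 46 metadata columns of per-sample values were not used.

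UMIs were summed per sample and class (20 cells or more) and tested with edgeR 4.0.16 (limma 3.58.1, R 4.3.3): TMM, filterByExpr at 10 counts, the quasi-likelihood test, Benjamini-Hochberg adjustment over all genes tested, threshold 0.05. The 4 V2 samples and the 14 V3 samples were fitted apart. Alternatives were DESeq2 1.42.0, no filter, a replicate block, fewer cells or samples. The method was tested on simulated data. Levels, shares, thinning to 1500 UMIs and figures used matplotlib 3.10.9, pandas 2.3.3, scipy 1.17.1 and numpy 2.4.6 under Python 3.11.15. A fold against a group at 0 used a floor of 3 counts over the group.

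The chimera replicate number is the mouse, by its hashtag. Deviations of same-mouse samples correlated at 0.0784, -0.0384 and 0.0493 over 4974 genes. Between replicates of a group no 2 samples agreed within sampling noise. Channels A and B shared 9 cell barcodes.

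The 6 genes, the gene lists and the tests were chosen with earlier results of these data known. Genes named besides the 6 are other Serpin genes (the 5 highest in V3), at most 4 per list by lowest p, and those most alike to each serpin by Pearson r among genes with a mean of at least 20 CPM. One of the gene lists is not reported here.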

Additional observations from a re-analysis of the deposited data

Results flagged for a closer look

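These values are listed because the effect of genotype was larger in intact mice than in chimeras. The genotype contrast of the V3 intact mice (∆Foxp3 at 3 weeks over WT at 9 weeks) and that of the chimeras (∆Foxp3 cells over WT cells) come from 1 fit of all V3 samples. The difference of the 2 log2 fold changes was 7.81 for Serpina3f, 4.76 for Serpina3g, 4.24 for Serpinb1a, 3.84 for Serpinb6b, 2.51 for Serpinb9 and 1.62 for Serpinb6a. The intact contrast helped to choose these genes, so the differences are a description and carry no test. Of all genes tested 36.8% were called for this difference. No group of these data held 4 or more samples, so single samples were not screened within groups.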

How the results depend on the processing

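Among 851 alternative values for single serpins, 806 kept their direction and their side of the threshold, 30 kept the direction but lost the threshold, 9 gained it and 6 changed sign. Fold changes within the classes of the chimeras are not among the 851. Their medians over the serpins lay near 0 (-0.08 in activated Tconv, 0.04 in resting Tconv and -0.02 in Treg-annotated cells), where signs change easily. Among 196 alternative counts of serpins called, 188 stayed within 1.5 times the count reported. The 6 sign changes counted all came from leaving out 1 sample. In chimeras the log2 fold change then ran from -0.52 to 0.0691 for Serpinb1a, from -0.13 to 0.0707 for Serpinb9, from -0.25 to 0.0599 for Serpinb6b and from -0.19 to 0.0561 for Serpinb6a, and in the sorted comparison from -0.104 to 1.02 for Serpinb6b. Leaving out 1 sample moved the count of serpins called in V2 resting Tconv to 2 to 5, in chimeras to 0 to 1 and in the sorted comparison to 0 to 2. Without the filter on low counts 2 serpins were called in chimeras, and without cells with markers of other cell types 1 was called in the sorted comparison. The cause was not tested, and leaving out a sample also leaves fewer samples.

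With the replicate block the serpins called were 6 in V2 all cells, 6 in V2 activated Tconv (5 without it, Serpinb6b passing with adjusted p = 0.0124 by edgeR), 5 in V2 resting Tconv, 3 in V2 Treg-annotated cells, 0 in chimeras and 2 in the sorted comparison. In V2 the numbers are not known to pair mice, and same-numbered samples correlated at 0.0816. Over all genes the chimera count was 50, against 280 with the block, 126 with DESeq2, 236 with the channel as a covariate, 146 with only the groups compared and 558 without the filter, and it ran from 16 to 203 with 1 sample left out. In V2 all cells 2561 genes were called, against 1593 with DESeq2, 453 without WT sample A and 515 without WT sample B. DESeq2 called 425 genes in place of 1238 in V2 activated Tconv, 1001 in place of 1972 in resting Tconv and 289 in place of 897 in Treg-annotated cells. Without cells with markers of other cell types, a rule that removed 29.2% of all cells, 578 genes were called in V2 activated Tconv and 349 in V2 Treg-annotated cells. In the chimera classes the block gave 103 genes in place of 12 in activated Tconv, 230 in place of 130 in resting Tconv and 47 in place of 22 in Treg-annotated cells. In the V3 intact mice 2584 genes, not 4694, were called without WT sample 1. In the sorted comparison 422 genes, not 1329, were called without Tconv sample 1. The channel covariate and the removal of cells with specific markers were chosen after seeing the data.

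Depth limits the low genes: Serpina3f and Serpinb1a rested on few UMIs in WT samples, so their folds have wide errors. The 2 samples of each intact V3 group share 1 hashtag, age differs with genotype there, and the V2 pair has 2 samples a group.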

Other observations

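In 2 libraries 1 cell held a large part of the Serpina3g UMIs. These cells, and the genes named here in them, were picked after their values were seen. The cell of ∆Foxp3 chimera sample 1 had 7530 UMIs, was annotated as resting Tconv and held 71 of the 128 Serpina3g UMIs of its library, together with 59 UMIs of Il2, the T cell growth factor, out of 317 in that library. An Il2 UMI was found in 2.57% of the cells of the library. The cell also had 66 UMIs of Srgn and 8 of Nr4a1, a gene of recent receptor signalling, and 0 of Foxp3. The cell of WT sample 1 of the V3 intact mice had 8307 UMIs, was also annotated as resting Tconv and held 29 of the 67 Serpina3g UMIs, with 48 UMIs of Tnfrsf4, 19 of Il2ra, 14 of Ctla4, 12 of Socs1 and 11 of Iigp1, and 0 of Foxp3.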
